A study of Homo sapiens with 4 samples.

Results

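The 7 genes described here, CNOT6, CNOT6L, PAN3, UPF1, AGO2, TNRC6B and PABPC1, encode proteins that shorten poly(A) tails, degrade messenger RNA (mRNA) or silence it. They were chosen by name, with earlier results of the same tables known, among the 3905 genes that the authors' deposited tables list. The choice used their presence in one table and absence from the other, so their values are given as a description and no test is made on them. The data are RNA immunoprecipitation sequencing (RIP-seq), in which an antibody pulls down a protein with the RNA bound to it and the recovered RNA is compared with input RNA. The antibody was against YTHDF3, per the labels' protocols. The 4 libraries were 1 immunoprecipitate (IP) and 1 input of SiHa cells labelled as a YTHDF3 knockout, and 1 IP and 1 input of SiHa, an established human cervical squamous carcinoma line. How the knockout was made, and whether it is 1 clone, is not given in the sources used here. The comparisons ask which transcripts the antibody enriched over input in each cell line. In the knockout the target of the antibody is expected to be lacking, yet 2340 genes were listed there. These include 2083 of the 3648 genes listed in SiHa (57.1%). Being listed in either cell line is therefore not taken as binding by YTHDF3. Whether the protein was absent was not tested.

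YTHDF3 is a cytoplasmic protein that binds N6-methyladenosine (m6A), the most abundant internal modification of mRNA. Readers of this family are known to bring methylated transcripts to the translation machinery or to deadenylation. Deadenylation removes the poly(A) tail through the PAN2-PAN3 and CCR4-NOT complexes. It is usually followed by removal of the cap and by degradation from either end. MicroRNAs reach the same deadenylases through Argonaute and TNRC6 proteins, and nonsense-mediated decay (NMD) removes transcripts with premature stop codons through UPF1. What was measured here is the recovery of the transcripts of these genes, not the activity of the proteins.

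Each deposited row holds the level of a gene in the IP and in the input of one cell line, and the authors' log2 fold of IP over input. Only genes that passed a log2 fold of 1 and a p-value of 0.05 are listed. The deposited log2 fold is log2 of the level ratio plus a constant, 0.81 in the knockout and 1.01 in SiHa, so folds exceed the ratio of the levels. The unit of the levels and the sequencing depth are unknown, and it is not known whether levels are per length. Where genes are matched or filtered by level below, this is by the deposited number and not by abundance per length. The IP column was recognised because its name lacks the word input. Its lane differs from, or is lacking in, the title of the sample, and this doubt applies to every IP level. Each group has 1 library, so the values carry no replicate error and the authors' p-values do not measure the spread between cultures. Levels come from bulk lysates, so fewer cells with a transcript and less of it per cell cannot be told apart. YTHDF3 itself was listed in SiHa only, at an IP level of 25.8 against an input level of 11.7. Of 5 epithelial markers 0 were listed in the knockout and 4 in SiHa (KRT8, KRT18, EPCAM and CDH1). Of 13 markers of leukocytes, fibroblasts, endothelium and neurons only the neuronal MAP2 was listed, in both tables. Of all genes tested, 21.2% were listed in the knockout and 27.0% in SiHa. Being listed reflects enrichment over input, so these counts do not measure expression of the markers. Whether this difference in listing bears on the results below was not tested.

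None of the 7 genes was listed in the knockout (0 of 7, where 21.2% of 11034 genes tested were listed), and all 7 were listed in SiHa (where 27.0% of 13529 genes tested were listed). Both counts follow from how the genes were chosen. In SiHa all 7 IP levels were above the input level, by ratios of 1.25 for CNOT6 to 2.33 for AGO2. Being listed in SiHa nearly fixes this, since 3645 of all 3648 listed genes had an IP level above the input level. Stricter rules kept fewer of the 7 genes in SiHa. An adjusted p-value of at most 0.05 kept 6 (21.8% of all genes tested) and a log2 fold of at least 1.5 kept 3 (22.2%). A level ratio of at least 2 kept 1 (14.1%), and a level at or above the median of listed genes kept 4 (13.5%). The 7 genes were already listed, so these shares of all genes tested are not like for like. Of the 3648 genes listed in SiHa, the same rules kept 2950, 2997, 1907 and 1824, in that order. The last count is fixed by the use of the median. In the knockout the same rules kept 17.0%, 18.1%, 15.7% and 10.6% of all genes tested. They only shorten a list that already lacks the 7 genes, so nothing is read from their absence under them. A gene that is not listed either missed the thresholds or was not tested, so the IP and input levels of the 7 genes in the knockout are not known.

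The deadenylase genes CNOT6, CNOT6L and PAN3 were all below the median enrichment of the genes listed in SiHa. CNOT6 (ENSG00000113300, GRCh38 chromosome 5, 180494379 to 180578358) encodes one of the catalytic subunits of CCR4-NOT. Its level was 19.9 in the SiHa IP and 15.9 in the SiHa input. The authors' deposited table gave it a log2 fold of 1.32, or 2.50-fold, and an adjusted p-value of 0.0233. This was the smallest enrichment of the 7 genes, and 9.46% of the listed genes had a lower one. CNOT6L (ENSG00000138767, chromosome 4, 77713387 to 77820269) encodes the paralogous subunit, which takes the same place in the complex. Its level was 11.9 in the SiHa IP and 6.75 in the SiHa input. In the authors' deposited table its log2 fold was 1.83, or 3.55-fold, with an adjusted p-value of 0.0268, and 36.7% of the listed genes were below it. The paralogs therefore differed in enrichment by 0.50 on the log2 scale, a difference between single libraries with no error to set it against.

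PAN3 (ENSG00000152520, chromosome 13, 28138193 to 28295335) encodes the subunit that brings the nuclease PAN2 to poly(A)-binding protein. Its level was 11.9 in the SiHa IP and 9.57 in the SiHa input. In the authors' deposited table its log2 fold was 1.33, with a p-value of 0.0286 and an adjusted p-value of 0.105. PAN3 was thus the member nearest to the limit for being listed, and the single one of the 7 above an adjusted p-value of 0.05.

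UPF1 (ENSG00000005007, chromosome 19, 18831959 to 18868230) encodes the RNA helicase at the centre of NMD. Its level was 23.3 in the SiHa IP and 17.0 in the SiHa input. The authors' deposited table gave a log2 fold of 1.46, or 2.75-fold, and an adjusted p-value of 0.00597. This was the median enrichment of the 7 genes.

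Of the silencing genes, AGO2 was the most enriched of all 7. AGO2 (ENSG00000123908, chromosome 8, 140520156 to 140642313) encodes the Argonaute protein that carries microRNAs and can cut their targets. Its level was 27.7 in the SiHa IP and 11.9 in the SiHa input, the only level ratio above 2 among the 7 genes. In the authors' deposited table its log2 fold was 2.23, or 4.68-fold, with an adjusted p-value of 1.74e-05, and 60.2% of the listed genes were below it. TNRC6B (ENSG00000100354, chromosome 22, 40044834 to 40335808) encodes a scaffold that links Argonaute to CCR4-NOT and PAN2-PAN3. Its level was 23.1 in the SiHa IP and 14.5 in the SiHa input. The authors' deposited table gave a log2 fold of 1.68, or 3.21-fold, and an adjusted p-value of 0.00191.

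PABPC1 (ENSG00000070756, chromosome 8, 100702916 to 100722088) encodes the main cytoplasmic poly(A)-binding protein, which coats the tails that the deadenylases remove. Its level was 147.6 in the SiHa IP and 108.3 in the SiHa input. In the authors' deposited table its log2 fold was only 1.45, or 2.74-fold, but its adjusted p-value was 4.59e-15, the smallest of the 7. By p-value PABPC1 took place 460 among all 13529 genes tested, and PAN3 place 3703. The authors' p-values were computed as if the levels were read counts, so at a like fold a higher level gives a smaller p-value. PABPC1 has 13 annotated pseudogenes of its name, of which 0 were listed in either table. Reads may still be split between such copies, so its levels are uncertain.

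**Figure D1:**
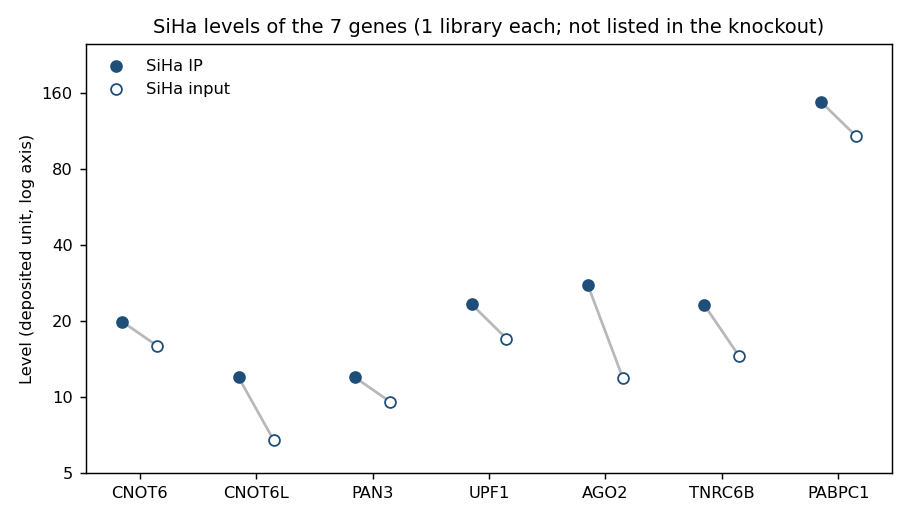
Level of each of the 7 genes in the SiHa IP (filled points) and the SiHa input (open points), in the unit of the deposited table on a log axis, 1 library per point. The IP point is above the input point for all 7 genes, as for 3645 of all 3648 genes listed in SiHa. AGO2 has the widest gap (27.7 against 11.9). No knockout values exist because the genes are not listed there.

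As a group the 7 genes were enriched less than most listed genes. Their median log2 fold was 1.46, against 2.04 for all 3648 genes listed in SiHa, and 6 of the 7 were below that median. The 7 genes were chosen as listed in SiHa only. All 1565 genes listed in SiHa only had a median of 1.72, against 2.32 for genes listed in both tables. A low median thus goes with the choice, and nothing particular to the 7 genes is read from it. Their level ratios of IP over input had a median log2 of 0.45, against 1.04 for all listed genes. CNOT6, PABPC1, PAN3 and UPF1 fell in the lowest quartile of SiHa log2 fold, CNOT6L and TNRC6B in the second and AGO2 in the third. None was in the highest quartile. Over all genes, the share that was also listed in the knockout was 25.7% in the lowest quartile, 49.3% in the second, 66.0% in the third and 87.4% in the highest. In the range of SiHa log2 fold that the 7 genes span, 1.32 to 2.23, 848 of 1852 genes (45.8%) were also listed in the knockout.

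**Figure D2:**
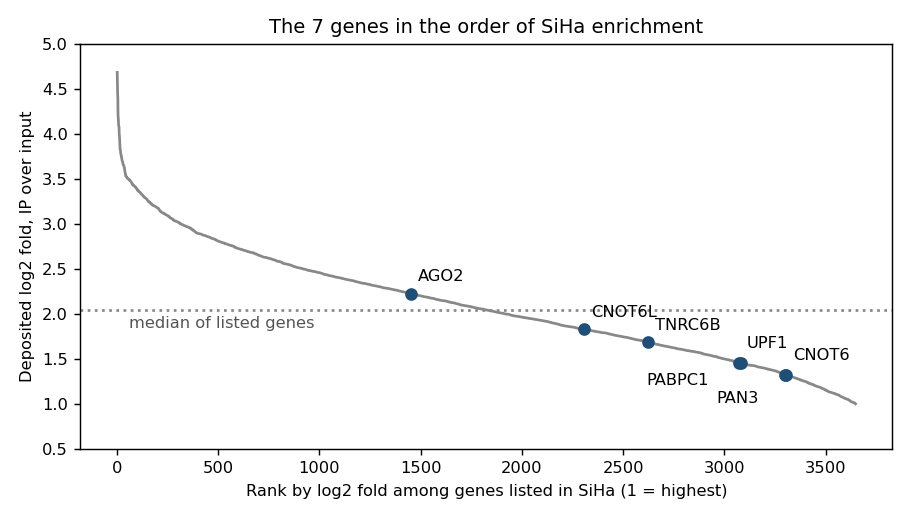
Deposited log2 fold of IP over input in SiHa against rank, for all 3648 listed genes (line) and the 7 genes (points). AGO2 at 2.23 is the one point above the median of the listed genes (2.04, dotted), and CNOT6 and PAN3 at 1.32 and 1.33 lie near the low end.

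The limit for being listed was not the same in both tables. A deposited 2-fold enrichment stood for a level ratio of 1.14 in the knockout and 0.996 in SiHa. The authors' p-values could be recomputed from the levels, and this gave the IP level that a gene needs at a given input level. At the SiHa input level of each gene, 6 of the 7 had SiHa IP levels that would also have been listed under the knockout's limit, and PAN3 would not. PAN3 needed an IP level of 12.4 under the knockout's limit and 11.0 under the SiHa limit, and its SiHa IP level was 11.9. CNOT6 was the next closest, with 18.1 needed under the knockout's limit against its SiHa IP level of 19.9. AGO2 was farthest above it, with an IP level of 14.4 needed, 51.9% of its SiHa IP level. For UPF1, CNOT6L and PABPC1 the level needed was 83.2% to 83.5% of the SiHa IP level, and for TNRC6B 71.3%. Over all SiHa-listed genes, 3160 of 3648 (86.6%) would have been listed under the knockout's limit at their SiHa levels, and 63.2% of those were listed in the knockout. The tables were normalised separately, so this sets SiHa levels against the knockout's limit and does not measure a level in the knockout.

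**Figure D3:**
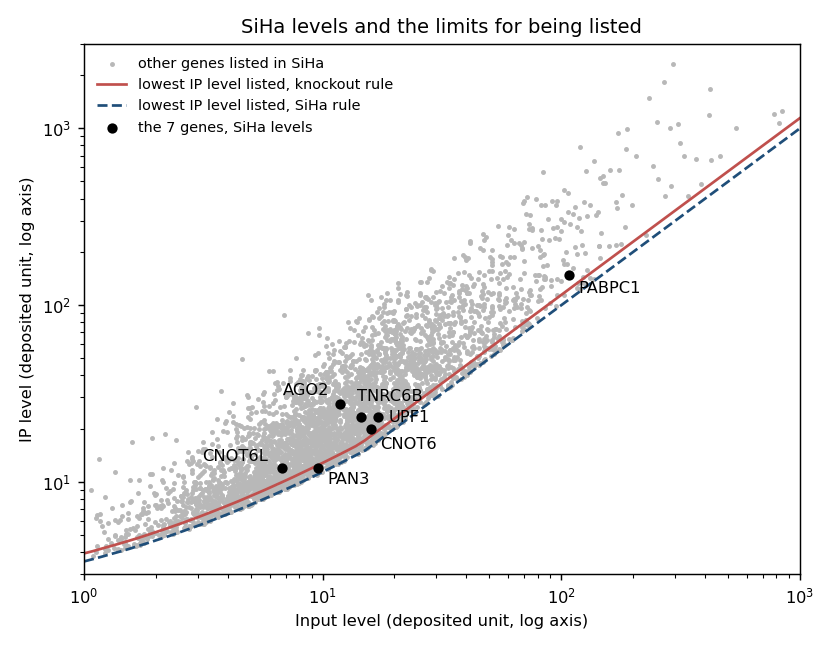
IP level against input level in SiHa, both in the deposited unit on log axes, for the 7 genes (black) and the other listed genes (grey). Lines give the lowest IP level that is listed under the knockout rule (solid red) and the SiHa rule (dashed blue); PAN3 lies between them and the other 6 genes lie above both.

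For each of the 7 genes the nearest protein-coding gene was taken by Euclidean distance in log2 IP and log2 input level over the 2 SiHa libraries, and 5 of these 7 nearest genes were listed in the knockout. Over all genes listed in SiHa, 57.1% were also listed in the knockout, so nothing particular is read from this count. The nearest gene to AGO2 was MED12, a Mediator subunit, at a distance of 0.039, with levels of 27.6 in the SiHa IP and 12.2 in the SiHa input. MED12 was listed in the knockout at a log2 fold of 1.77, against 2.19 in SiHa, in the authors' deposited tables. DHX38 (a splicing helicase) was nearest to CNOT6L, VEZT to CNOT6, DNAJC13 to UPF1 and SETD3 to TNRC6B, and all 4 were listed in the knockout. The authors' deposited table gave a knockout log2 fold of 2.71 for DHX38, 1.47 for VEZT, 1.68 for DNAJC13 and 1.45 for SETD3. NAA35, nearest to PAN3, and KRT18, the simple epithelial keratin nearest to PABPC1, were not listed there. Distances ran from 0.014 for VEZT to 0.040 for NAA35.

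The other genes of the same machinery were taken from 8 lists by role, 140 genes with the 7 included and 133 without. Of the 133, 40 (30.1%) were listed in the knockout, against 21.2% of all genes tested. In SiHa 54 (40.6%) were listed, against 27.0% of all genes tested. The shares are not like for like. The 133 may include genes that were not tested, and the genes tested include some that are not protein-coding. Nothing is therefore read from the difference. Both tables listed 36 of them, 18 were listed in SiHa only and 4 in the knockout only. Genes of these lists that were in SiHa only had a median SiHa log2 fold of 1.56, against 2.27 for those listed in both. Over all genes the same medians were 1.72 and 2.32.

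Of the 16 CCR4-NOT genes and adaptors, 3 were listed in the knockout and 7 in SiHa, CNOT6 and CNOT6L included. Without these 2 chosen genes the counts were 3 of 14 in the knockout (21.4%, against 21.2% of all genes tested) and 5 of 14 in SiHa (35.7%, against 27.0%). CNOT1, the scaffold of the complex, was listed in both tables, as were CNOT2 and CNOT3, which form its NOT module. CNOT1 had levels of 68.3 in the knockout IP and 36.9 in the knockout input, against 205.0 in the SiHa IP and 81.5 in the SiHa input. In the authors' deposited tables its log2 fold was 1.70 in the knockout and 2.34 in SiHa. For CNOT3 the log2 fold in the authors' deposited tables was 3.40 in the knockout and 2.84 in SiHa, and for CNOT2 2.20 in the knockout and 1.62 in SiHa. CNOT7 and CNOT8, the other nuclease subunits (named outside the rule, as are PAN2 and the Argonaute paralogs below), were listed in neither table. TOB1, an adaptor between CCR4-NOT and poly(A)-binding protein, was listed in SiHa only, at 2.10 in the authors' deposited table. PAN2, the partner of PAN3, was listed in neither table. PARN, a poly(A)-specific ribonuclease that works outside both complexes, had a log2 fold of 1.53 in the knockout and 1.42 in SiHa in the authors' deposited tables.

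Of 21 genes of decapping and 5′ to 3′ decay, 8 were listed in the knockout and 8 in SiHa (38.1% in each), 7 of them in both, and 12 were in neither table. Over all genes, those listed in both tables made up 89.0% of the knockout list and 57.1% of the SiHa list. Among all genes tested, 21.2% were listed in the knockout and 27.0% in SiHa. Of 19 exosome and SKI genes 4 were listed in both tables by their current symbols, EXOSC9, EXOSC10, DIS3 (named outside the rule) and DIS3L, which is 21.1% in each. By older symbols SKIC3 and MTREX were also in both tables, which makes 6 of 19. EXOSC9, a subunit of the exosome core, had a log2 fold of 4.06 in the knockout and 2.89 in SiHa in the authors' deposited tables. Its input level was 1.26 in the knockout and 4.88 in SiHa, and its IP level 11.9 in the knockout and 18.0 in SiHa. The median input level of genes listed in the knockout was 8.08, so the EXOSC9 fold there rests on a low input level. For EXOSC10, a nuclease of the nuclear exosome, the authors' deposited tables gave 3.07 in the knockout and 3.13 in SiHa. DIS3L, a nuclease of the cytoplasmic exosome, stood at 2.11 in the knockout and 2.42 in SiHa in the authors' deposited tables. XRN1, the 5′ to 3′ exonuclease of the cytoplasm, stood at 2.12 in the knockout and 2.28 in SiHa in the authors' deposited tables. EIF4ENIF1, which binds the cap-binding protein eIF4E, stood at 2.68 in the knockout and 2.81 in SiHa in the authors' deposited tables. DCP1B, a decapping cofactor, stood at 2.04 in the knockout and 2.64 in SiHa there. The adjusted p-value of DCP1B in the authors' deposited tables was 0.0767 in the knockout and 0.00176 in SiHa. LSM3, a protein of the LSM rings, stood at 2.43 in the knockout and 1.88 in SiHa in the authors' deposited tables. LSM14A, a P-body protein, was listed in the knockout only, at 2.83-fold in the authors' deposited table.

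The NMD partners of UPF1 were among the most enriched genes of these lists in the knockout. UPF2, the adaptor that joins UPF1 to the exon junction complex, had levels of 42.3 in the knockout IP and 4.19 in the knockout input, against 29.4 in the SiHa IP and 7.79 in the SiHa input. The authors' deposited tables gave UPF2 a log2 fold of 4.15 in the knockout and 2.92 in SiHa. UPF3A, which binds UPF2, had levels of 41.4 in the knockout IP and 5.87 in the knockout input, against 14.6 in the SiHa IP and 11.0 in the SiHa input. Its log2 fold in the authors' deposited tables was 3.63 in the knockout and 1.42 in SiHa, a difference of 2.21, the widest among the 36 shared genes. UPF3B, the paralog of UPF3A, was listed in the knockout only, at 3.36 in the authors' deposited table. CASC3, of the exon junction complex, stood at 2.64 in the knockout and 2.56 in SiHa, and NCBP1, a nuclear cap-binding subunit, at 1.98 in the knockout and 2.49 in SiHa in the authors' deposited tables. In this list 8 of 20 genes were listed in the knockout and 12 in SiHa, UPF1 included. Without UPF1 the shares were 42.1% in the knockout (against 21.2% of all genes tested) and 57.9% in SiHa (against 27.0%).

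In microRNA silencing 3 of 18 genes were listed in the knockout and 8 in SiHa, AGO2 and TNRC6B included. Without these 2 chosen genes the counts were 3 of 16 in the knockout (18.8%, against 21.2% of all genes tested) and 6 of 16 in SiHa (37.5%, against 27.0%). The 3 in both tables were DROSHA, which cuts primary microRNA transcripts in the nucleus, DICER1, which cuts their hairpins, and TNRC6A, a paralog of TNRC6B. DROSHA had levels of 144.0 in the knockout IP and 21.5 in the knockout input, against 140.1 in the SiHa IP and 35.5 in the SiHa input. In the authors' deposited tables the log2 fold of DROSHA was 3.56 in the knockout and 2.99 in SiHa, and that of DICER1 2.36 in the knockout and 2.74 in SiHa. TNRC6A had levels of 15.5 in the knockout IP and 5.11 in the knockout input, against 35.9 in the SiHa IP and 11.1 in the SiHa input. Its log2 fold in the authors' deposited tables was 2.42 in the knockout and 2.70 in SiHa. TNRC6C, the third paralog (named outside the rule, after its value was seen), was listed in SiHa only, at 2.23 in the authors' deposited table. The TNRC6C fold rests on low levels, 7.37 in the SiHa IP and 3.16 in the SiHa input. Its adjusted p-value in the authors' deposited table was 0.0558. AGO1, AGO3 and AGO4 were listed in neither table.

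Of the poly(A)-binding list 7 of 19 genes were listed in the knockout and 10 in SiHa, PABPC1 included. Without PABPC1 the shares were 38.9% in the knockout (against 21.2% of all genes tested) and 50.0% in SiHa (against 27.0%). ZC3H14, a nuclear poly(A)-binding protein, had the largest SiHa log2 fold of all 8 lists, 3.53 in the knockout and 3.49 in SiHa in the authors' deposited tables. PAIP2, an inhibitor of PABPC1, stood at 2.99 in the knockout and 2.48 in SiHa, and ATXN2, which binds PABPC1, at 2.44 in the knockout and 2.31 in SiHa in the authors' deposited tables. PABPC4, a paralog of PABPC1 that was named after its value was seen, was listed in SiHa only, at 1.16 in the authors' deposited table. LARP4 was listed in the knockout only, at 1.18 with an adjusted p-value of 0.146 in the authors' deposited table. Among 20 RNA-binding proteins that bring transcripts to these complexes, 6 were listed in the knockout (30.0%) and 10 in SiHa (50.0%). The shares of all genes tested were again 21.2% in the knockout and 27.0% in SiHa. RC3H2, a Roquin protein, stood at 1.39 in the knockout and 2.21 in SiHa in the authors' deposited tables. RC3H1 stood at 1.75 in the knockout and 1.64 in SiHa in the authors' deposited tables. Its adjusted p-value there was 0.153 in the knockout and 0.0328 in SiHa. ZFP36L2, which binds AU-rich elements, was listed in SiHa only, at 2.08 in the authors' deposited table. ZC3H12A, an endonuclease, was listed in the knockout only, at 1.77 with an adjusted p-value of 0.106 in the authors' deposited table.

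Across the 36 shared genes of the 8 lists, the deposited fold in the knockout exceeded that in SiHa for 18 genes and was below it for the other 18. The median difference of knockout minus SiHa was -0.017 on the log2 scale. Over all 2083 shared genes it exceeded that in SiHa for 1252 (60.1%), with a median difference of 0.18. These counts depend on the constants. By the level ratios without them, 24 of the 36 genes were higher in the knockout and 12 lower, as were 1518 of all 2083 higher and 565 lower, so no direction is given. Input levels were lower in the knockout for 31 of the 36 genes, and for 1569 of all 2083 shared genes, in separately normalised tables.

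**Figure D4:**
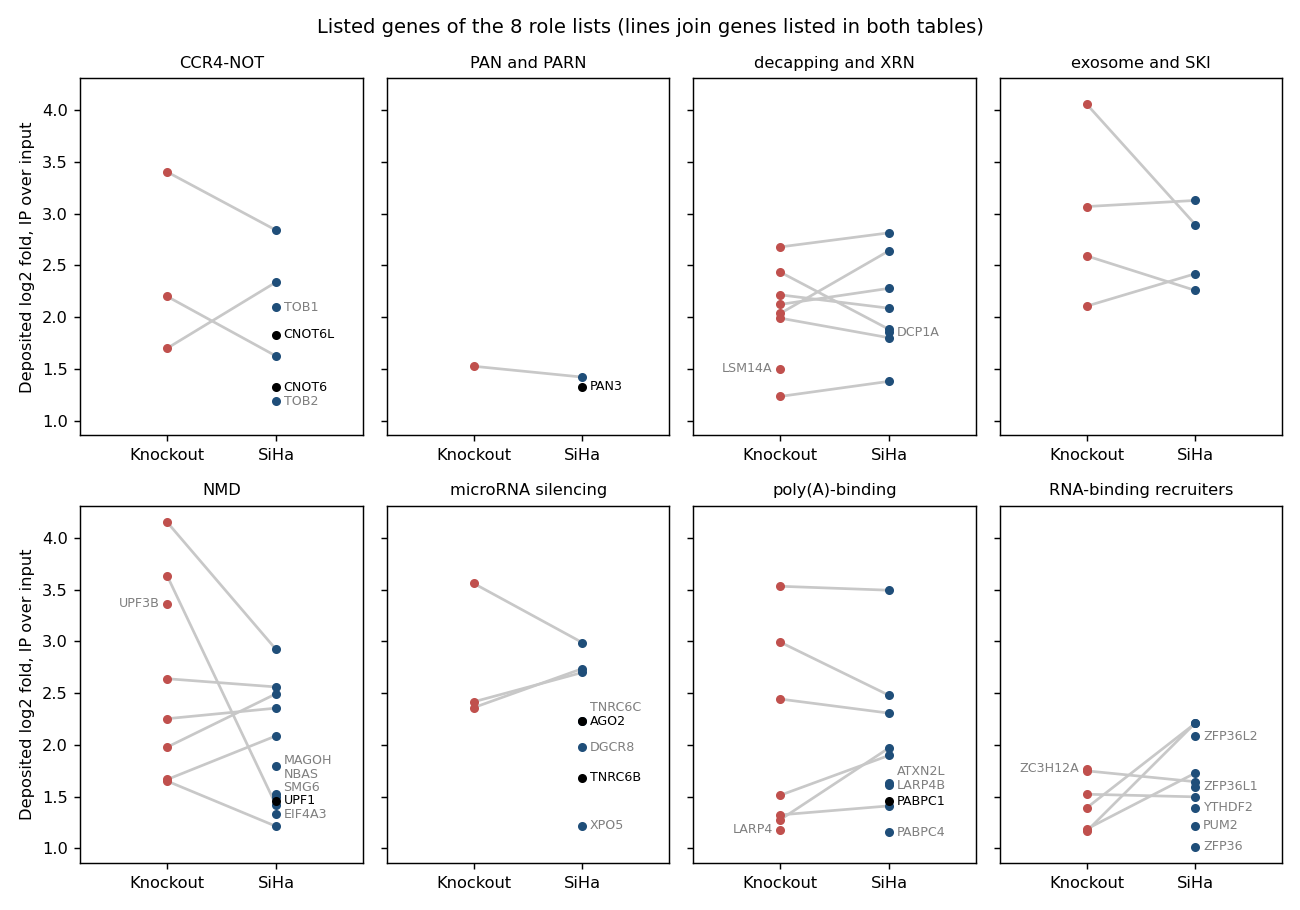
Deposited log2 fold of IP over input in the knockout (left, red) and in SiHa (right, blue; the 7 genes in black) for the listed genes of the 8 role lists. Lines join genes listed in both tables and names mark genes listed in 1 table only; all 4 exosome genes found by current symbol are joined, and all 7 black points stand alone.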

How the data were processed

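RIP-seq was analysed from 4 libraries, 1 per group. Libraries of YTHDF3-antibody-enriched and input mRNA were made with a stranded kit, per the labels' protocols. FastQC 0.11.7 and the builds GRCh38 and hg38 are named per the submitters' processing notes; for the aligner, the counting tool and the test, the version and name were not given in the sources used here. Per the file headers, the authors deposited a log2 fold of IP over input, a p-value, an adjusted p-value and a level per library, in 1 table for each cell line. The deposited levels are a signal of unknown unit and depth, so no counting interval is given.

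The members, the role lists and the alternatives were chosen with earlier results of these data known. Genes were matched by symbol. Named genes were the 7 members, YTHDF3, the gene nearest to each member, and from each role list up to 3 other genes by SiHa fold, up to 2 by knockout fold and any listed in the knockout only. Paralogs, partner subunits and DIS3 were added outside this rule after the values were seen. One gene that this rule names is not reported here. The number of genes tested was the one that made the ratio of p-value to adjusted p-value a whole rank for each gene (mean deviation 0.00034 in the knockout and 0.00047 in SiHa). A model of random read sampling on the MA plot met the deposited p-values above 1e-12 within 0.0020 in log10 p over 1776 knockout genes. Over 3051 SiHa genes it met them within 0.0021, and smaller p-values were not fitted. The code was checked on data simulated from this same model, which does not show that the authors used it. Limits for being listed came from that model. Locations are from RefSeq on GRCh38.p14. Python 3.11.15, pandas 2.3.3, numpy 2.4.6 and scipy 1.17.1 were used.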

Additional observations from a re-analysis of the deposited data

How the results depend on the processing

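The members' count of 0 in the knockout was fixed by their choice, since 4 of the 5 alternatives only shorten that table, and shows no stability. Their number in SiHa was 6 with an adjusted p-value of at most 0.05. A log2 fold of at least 1.5 left 3 (AGO2, CNOT6L and TNRC6B). The median level of listed genes or above left 4, and a level ratio of at least 2 left 1 (AGO2). Of all 3648 genes listed in SiHa these rules left 2950, 2997, 1824 and 1907, in that order. With that level ratio the role lists had 24 genes listed in the knockout (40 as deposited), 27 in SiHa (61 as deposited) and 8 in SiHa but not in the knockout (25 as deposited). At or above the median level they had 19 in the knockout, 38 in SiHa and 21 in SiHa but not in the knockout. Of all genes tested, the level ratio kept 15.7% in the knockout and 14.1% in SiHa. The median level kept 10.6% in the knockout and 13.5% in SiHa. Older symbols added SKIC3 and MTREX to both tables. The members' median SiHa log2 fold was 1.46 as deposited, 0.45 without the constant, 1.57 for those with an adjusted p-value of at most 0.05, and -0.58 after the median of all listed genes was subtracted. The median share of listed genes below a member was 15.8% by fold, 40.5% by p-value, 53.4% by IP level, and 20.3% by fold among protein-coding genes at or above the median level, where 4 members remained. No paired analysis was possible because each group has 1 library, and no library could be left out. Without the members, 54 role genes were listed in SiHa and 18 of them not in the knockout; this was added after seeing the data. The unknown depth limits every statement on a gene that is not listed.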
